A study of Rattus norvegicus with 8 samples.

Results

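The Notch receptors Notch1, Notch2 and Notch3, their ligands Jag1, Jag2 and Dll1, and the effectors Hes1, Hey1, Hey2 and Heyl were examined in rat annulus fibrosus cells (AFCs), the cells of the outer ring of the intervertebral disc. These 10 genes were taken by symbol from the 31699 rows of the deposited expression table by exact match to 1 row each (for instance ENSRNOG00000018835 for Notch2 and ENSRNOG00000001720 for Hes1). RNA-seq had been performed on 8 libraries of AFCs from Sprague Dawley rats, 4 with the label Lv-Ctrl and 4 with the label Lv-Piezo1. By the labels and the study's methods, Lv-Ctrl stands for the empty lentiviral vector pLVX-shRNA-Puro and Lv-Piezo1 for this vector with a short hairpin RNA against Piezo1, a mechanically gated calcium channel, each at a multiplicity of infection of 20 for 24 h. All 8 samples were then placed under cyclic mechanical stretch (CMS) at 20% elongation and 0.5 Hz for 36 h, so no unstretched and no uninfected sample enters the comparison. The cells of each isolation came from the pooled annulus fibrosus of 8 rats and had been passaged in culture. By the methods there were at most 4 independent repeats, each with cells of 1 isolation given the different treatments, so the groups share isolations. The sources used here do not say whether the replicate numbers mark them. The tests therefore take the 8 libraries as independent, unless a replicate block is named. Expression is given as TPM, the transcript abundance measure scaled for transcript length, which can be compared between genes.

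Notch receptors sit in the cell membrane and are bound by Jagged or Delta-like ligands on a neighbouring cell. Binding lets ADAM proteases and then gamma-secretase cut the receptor, and the freed intracellular domain joins the DNA-binding protein RBPJ and a Mastermind coactivator in the nucleus. Genes of the Hes and Hey families, which encode transcriptional repressors, are the best known targets of this complex. In blood vessels Notch3 is a receptor of smooth muscle cells and pericytes, and Notch signaling also takes part in the formation of the spine and its discs.

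The targeted transcript went against the labels. Piezo1 measured 31.1, 33.0, 26.7 and 29.5 TPM in the libraries labelled Lv-Ctrl and 38.1, 37.7, 40.2 and 41.4 TPM in those labelled Lv-Piezo1, a log2 fold change of 0.38 (limma, SE 0.06, adjusted p = 8.6e-04). It was 0.21 with median-ratio scaling (limma, adjusted p = 0.0036) and 0.26 with quantile normalization (limma, adjusted p = 0.0031). The groups are therefore called by their labels, and every direction given is for Lv-Piezo1 relative to Lv-Ctrl. Whether the labels of the groups were exchanged was not tested, and an exchange would turn every one of these directions. TPM keeps no sequencing depth, so the depth behind each value is unknown. The libraries labelled Lv-Piezo1 also had more rows above 0 (17191 to 17657, against 16645 to 17022), and the median log2 fold change over the 13103 genes tested was 0.14, which median-ratio scaling brought to -0.02. The fibrous markers Col1a1, Col1a2, Bgn, Dcn and Lum were abundant in every sample, whereas Tnmd, a marker of tendon-like cells, was listed at 0 in 7 of the 8 samples.

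The 10 Notch genes did not move together. Notch1, Notch2, Notch3, Jag1 and Jag2 were higher in every library labelled Lv-Piezo1 than in any library labelled Lv-Ctrl, and Dll1 and Hey2 were lower in every one. Hes1, by far the most abundant of the 10, had a lower mean but overlapping groups. Hey1 was barely above 0 in one group, and Heyl was listed at 0 in all 8 samples. The groups did not overlap for 8 of the 10 genes, 6 with the Lv-Piezo1 label on the higher side and 2 on the lower. Over all 20242 rows above 0 in at least 1 sample the groups did not overlap for 40.7%, with 30.3% higher and 10.4% lower, and over the rows with a mean between 0.1 and 1 TPM, where Notch3, Jag2 and Hey2 lie, for 28.2%. In bulk samples, fewer cells of a type and less RNA per cell cannot be told apart.

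**Figure D1:**
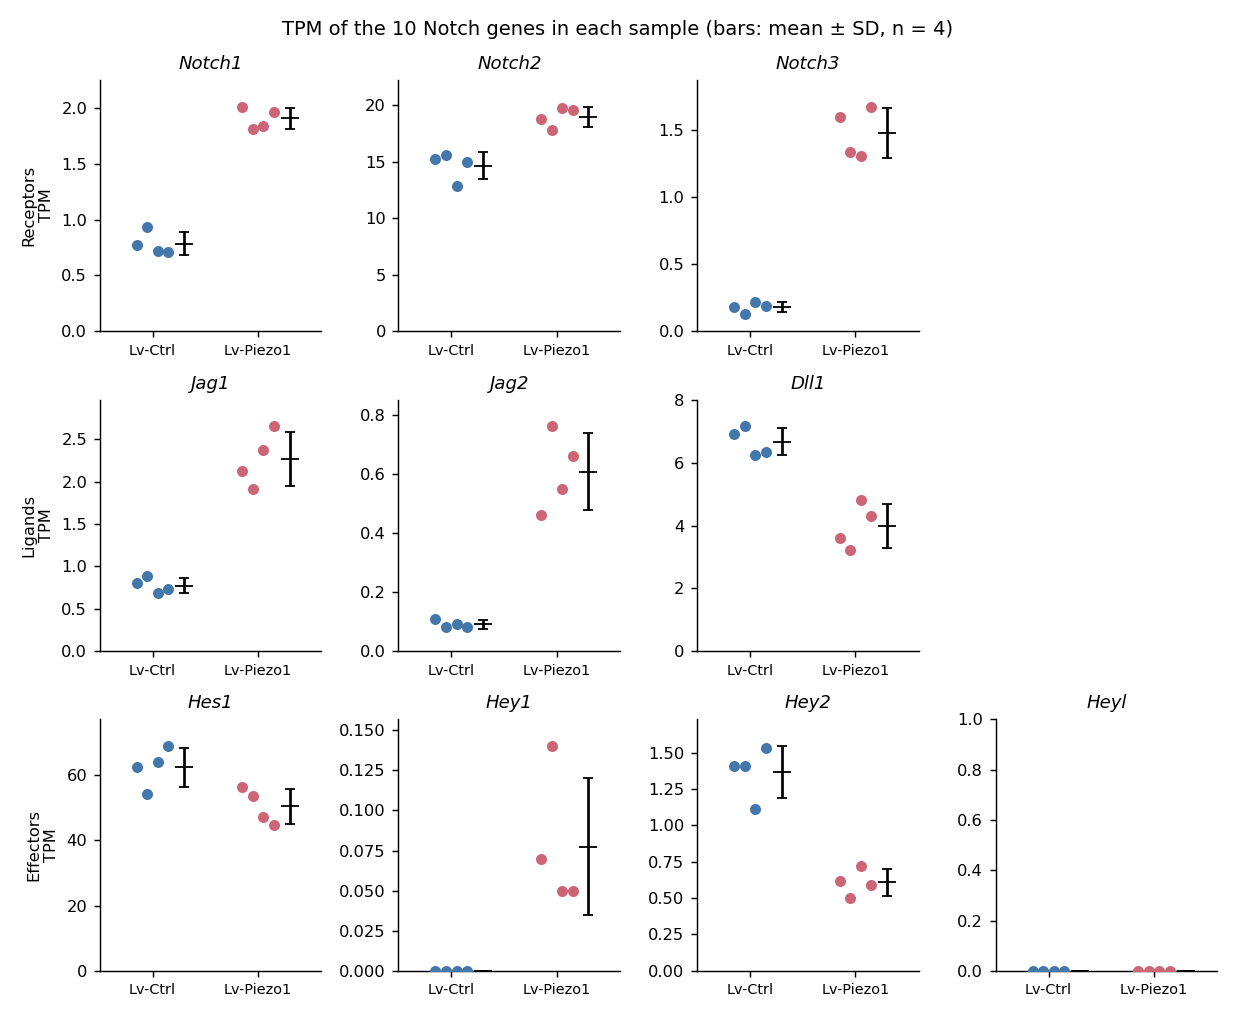
TPM (y axis, linear, from 0, a separate scale for each gene) of the 10 Notch genes in the 4 libraries labelled Lv-Ctrl and the 4 labelled Lv-Piezo1. The points (samples, beside mean and SD bars, n = 4) of the groups are apart for every gene drawn except Hes1 and Heyl, and Heyl lies at 0 throughout.

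Only 5 of the 10 genes had a mean of at least 1 TPM over the 8 samples, the limit for the test across all genes: Notch1, Notch2, Jag1, Dll1 and Hes1. A gene was called at a Benjamini-Hochberg adjusted p below 0.05 from limma on log2(TPM + 1) and a log2 fold change of at least 1, which 7.67% of the tested genes reached. Of the 5 Notch genes, 0 were called by limma, while all 5 had an unadjusted p below 0.05, as did 8167 of all 13103 tested genes. Notch1 and Jag1 were below 1 TPM in every library labelled Lv-Ctrl and passed the limit through the other group, where they are high, so these counts rest partly on the limit and support nothing about the 10 genes. Without the fold change limit the adjusted p was below 0.05 for 5 of the 5, of which 3 were higher and 2 lower, beside 58.2% of all tested genes. A pseudocount of 1 weighs heavily on genes near 1 TPM: with 0.1 in its place, Notch1 and Jag1 were called as higher, beside 11.0% of all tested genes. Without the limit on low TPM, 9 of the 10 genes could be fitted and 9 had an adjusted p below 0.05 (42.0% of all rows fitted), and Notch3 was called (5.10% of all rows fitted). With both changes together, an alternative added after the values had been seen, Notch1, Notch3, Jag1 and Jag2 were called as higher and Hey2 as lower, 5 genes in all, beside 11.2% of all rows fitted.

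**Figure D2:**
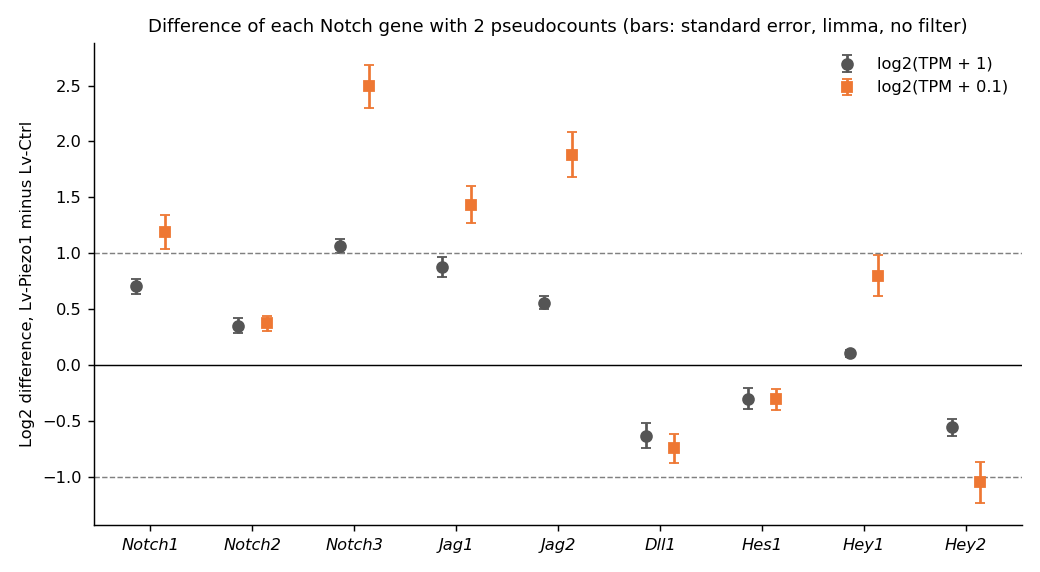
Log2 difference (y axis, Lv-Piezo1 minus Lv-Ctrl) of 9 Notch genes from limma without a limit on low TPM, with a pseudocount of 1 (circles) and of 0.1 (squares), with standard errors as bars and the call limit of 1 as dashed lines. The 2 scales give nearly the same value for Notch2 and Hes1, and part for Notch3, Jag2 and the other genes of low TPM. The direction of all 9 is the same on both, which is fixed in advance where the groups do not overlap.

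Among the receptors, Notch2 held most of the transcripts. It measured 15.3, 15.6, 12.9 and 14.98 TPM in the libraries labelled Lv-Ctrl and 18.8, 17.8, 19.8 and 19.6 TPM in those labelled Lv-Piezo1, means of 14.7 ± 1.23 and 19.0 ± 0.908 TPM (n = 4 each, SD). The lowest value labelled Lv-Piezo1 lay above the highest labelled Lv-Ctrl, and the log2 fold change was 0.35 (limma, SE 0.07, adjusted p = 0.0015). This value was smaller after rescaling of the table, 0.18 with median-ratio scaling and 0.19 with quantile normalization.

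Notch1, a receptor known from T cell leukaemia, was near 1 TPM and passed the limit for testing only through the libraries labelled Lv-Piezo1. Its values were 0.77, 0.93, 0.72 and 0.71 TPM in the libraries labelled Lv-Ctrl and 2.01, 1.81, 1.84 and 1.96 TPM in those labelled Lv-Piezo1. The mean TPM was 2.43 times higher, and the fold between any library labelled Lv-Piezo1 and any labelled Lv-Ctrl ran from 1.95 to 2.83. The log2 fold change on log2(TPM + 1) was 0.71 (limma, SE 0.10, adjusted p = 3.1e-04) and 1.19 on log2(TPM + 0.1) (limma, SE 0.18, adjusted p = 3.8e-04).

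Notch3 showed the widest separation of the 3 receptors. It measured 0.18, 0.13, 0.22 and 0.19 TPM in the libraries labelled Lv-Ctrl and 1.59, 1.33, 1.30 and 1.67 TPM in those labelled Lv-Piezo1. Every sample of the second group was at least 5.91 times above every sample of the first, with a mean 8.18 times higher. Its mean over the 8 samples, 0.826 TPM, was under the limit for testing, so it was compared alone (two-sided exact permutation test, 70 relabelings, p = 0.029, below which 4 against 4 cannot go). In the fit without that limit its log2 fold change was 1.06 (limma, SE 0.07, adjusted p = 6.3e-06), on a scale that understates the change of a gene this low.

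Within each sample the receptors can be set against each other, and such a share does not depend on how the TPM column was scaled. Of the summed TPM of Notch1, Notch2, Notch3 and Notch4, Notch2 made up 85.7% ± 0.585 in the libraries labelled Lv-Ctrl and 80.7% ± 1.13 in those labelled Lv-Piezo1 (n = 4 each, SD). The share of Notch3 was 1.07% ± 0.313 and 6.26% ± 0.675, and that of Notch1 4.57% ± 0.471 and 8.11% ± 0.38 (n = 4 each, SD). Notch4, best known from endothelial cells, made up 8.65% ± 0.949 and 4.89% ± 0.548 (n = 4 each, SD). In TPM it was at 1.49 ± 0.264 and 1.15 ± 0.108 (n = 4 each, SD). Its groups overlapped, and its log2 fold change was -0.21 (limma, SE 0.12, adjusted p = 0.16). The summed receptor TPM was 17.1 ± 1.5 and 23.5 ± 0.995 (n = 4 each, SD). Notch2 was thus the main receptor transcript in both groups, with 58.5 to 120 times the TPM of Notch3 in the libraries labelled Lv-Ctrl and 11.8 to 15.2 times in the libraries labelled Lv-Piezo1.

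The ligands differed in direction. Jag1, a Jagged ligand with roles in vascular smooth muscle and in the skeleton, measured 0.80, 0.88, 0.68 and 0.73 TPM in the libraries labelled Lv-Ctrl. With the Lv-Piezo1 label it gave 2.13, 1.91, 2.37 and 2.65 TPM. The mean was 2.93 times higher, the largest difference among the tested Notch genes. That rank leaves out Notch3 and Jag2, at 8.18 and 6.75 times higher but under the limit for testing. Jag1 itself passed the limit only through the libraries labelled Lv-Piezo1, where it is high. Its log2 fold change was 0.88 on log2(TPM + 1) (limma, SE 0.11, adjusted p = 1.4e-04) and 1.43 on log2(TPM + 0.1) (limma, SE 0.18, adjusted p = 1.3e-04).

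Jag2, the second Jagged ligand, was much lower than Jag1 in both groups. Its values were 0.11, 0.08, 0.09 and 0.08 TPM in the libraries labelled Lv-Ctrl and 0.46, 0.76, 0.55 and 0.66 TPM in the libraries labelled Lv-Piezo1 (two-sided exact permutation test, p = 0.029). The groups were well apart, with a lowest fold between samples of 4.18, although values of the first group stand only a few steps above the 2 decimals of the table.

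Dll1, a Delta-like ligand needed for somite formation, went the other way. It measured 6.92, 7.17, 6.27 and 6.36 TPM in the libraries labelled Lv-Ctrl and 3.60, 3.24, 4.82 and 4.30 TPM in the libraries labelled Lv-Piezo1, means of 6.68 ± 0.435 and 3.99 ± 0.707 TPM (n = 4 each, SD). The groups did not overlap, and the Lv-Piezo1 mean was 1.67 times lower. The log2 fold change was -0.63 (limma, SE 0.10, adjusted p = 7.4e-04), and it was -0.78 after median-ratio scaling.

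The opposite directions left the summed TPM of Jag1, Jag2, Dll1, Dll3 and Dll4 close in both groups, at 7.59 ± 0.462 and 6.94 ± 0.942 (n = 4 each, SD), while its makeup differed. Dll1 held 87.9% ± 0.426 of it in the libraries labelled Lv-Ctrl and 57.3% ± 2.89 in those labelled Lv-Piezo1 (n = 4 each, SD). The share of Jag1 was 10.1% ± 0.55 and 32.7% ± 2.03, and that of Jag2 1.19% ± 0.183 and 8.93% ± 2.66 (n = 4 each, SD). The ratio of Dll1 to Jag1 was 8.65, 8.15, 9.22 and 8.71 in the libraries labelled Lv-Ctrl and 1.69, 1.70, 2.03 and 1.62 in the libraries labelled Lv-Piezo1, with no overlap. Dll4, the Delta-like ligand of endothelial tip cells, was listed at 0 in all but 1 sample.

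**Figure D3:**
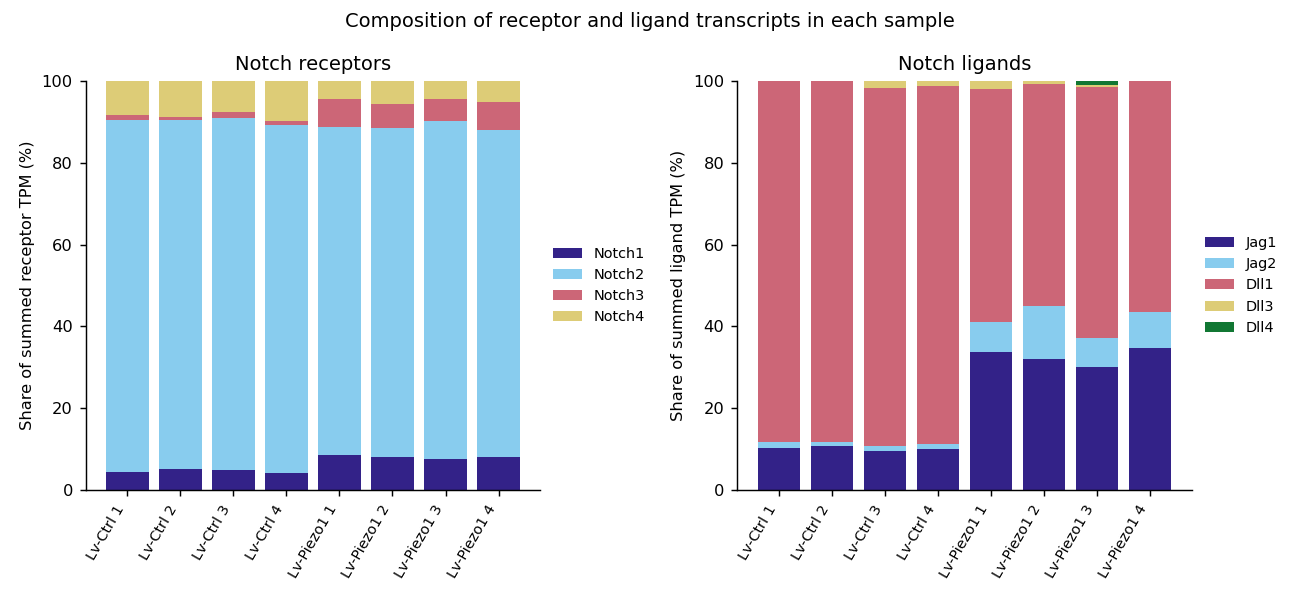
Share (y axis, percent) of each gene in the summed TPM of the Notch receptors (left) and ligands (right) in each of the 8 samples. Notch2 holds over 80% of the receptor TPM in every sample, and the share of Jag1 is about 3 times larger in the libraries labelled Lv-Piezo1.

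The effectors were dominated by Hes1, a repressor that also shuts down its own promoter. It measured 62.5, 54.2, 63.9 and 68.8 TPM in the libraries labelled Lv-Ctrl and 56.3, 53.5, 47.2 and 44.6 TPM in the libraries labelled Lv-Piezo1, means of 62.3 ± 6.07 and 50.4 ± 5.41 TPM (n = 4 each, SD). The second library labelled Lv-Ctrl lay within the range of the other group, and the two-sided exact permutation test alone gave p = 0.057. In the fit across all genes the log2 fold change was -0.30 (limma, SE 0.09, adjusted p = 0.017), with an adjusted p between 0.0047 and 0.048 over the alternatives. The log2 fold change was -0.48 with median-ratio scaling and -0.41 with quantile normalization. Hes1 made up over 97% of the summed TPM of Hes1, Hey1, Hey2 and Heyl in every sample.

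Hey2, a repressor of the heart and of arteries, was lower under the Lv-Piezo1 label. Its values were 1.41, 1.41, 1.11 and 1.53 TPM in the libraries labelled Lv-Ctrl and 0.62, 0.50, 0.72 and 0.59 TPM in the libraries labelled Lv-Piezo1 (two-sided exact permutation test, p = 0.029). The groups did not overlap and the mean was 2.25 times lower, but the mean over the 8 samples of 0.986 TPM was just under the limit for testing. In the fit with a pseudocount of 0.1 and no such limit its log2 fold change was -1.05 (limma, SE 0.18, adjusted p = 0.0017). Hey1, its close relative, was listed at 0 in the 4 libraries labelled Lv-Ctrl and at 0.07, 0.14, 0.05 and 0.05 TPM in the libraries labelled Lv-Piezo1. Heyl was listed at 0 in all 8 samples.

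RefSeq promoter windows of assembly GRCr8, from 250 bases before to 50 bases after the listed start of a gene, were found for 9 of the 10 genes, with 2 windows for Jag2. They were searched on both strands for the letters TGGGAA, the core of the sequence bound by RBPJ. The 3 windows that held it more than once belonged to Hes1, Hey2 and Dll1, each with 2 matches. These are also the 3 genes with a lower mean in the libraries labelled Lv-Piezo1, a coincidence of 3 genes seen after the values were known and not tested. Among all 33469 windows of the same length, 25.7% held at least 1 match and 3.85% at least 2. Printed here are these windows and that of Notch3, which held 1 match after its start, and the capitals mark the matches on either strand. The other windows, of Notch1, Notch2, Jag1, Jag2 and Heyl, held none. A match describes letters in this window and not a bound site.

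Hes1, chr11:84212996-84213295, minus strand: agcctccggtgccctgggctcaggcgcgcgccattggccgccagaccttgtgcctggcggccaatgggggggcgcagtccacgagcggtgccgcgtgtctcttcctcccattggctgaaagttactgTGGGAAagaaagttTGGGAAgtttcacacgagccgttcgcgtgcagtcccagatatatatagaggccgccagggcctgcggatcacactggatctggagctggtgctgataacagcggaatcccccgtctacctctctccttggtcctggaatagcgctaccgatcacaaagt

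Hey2, chr1:28640850-28641149, plus strand: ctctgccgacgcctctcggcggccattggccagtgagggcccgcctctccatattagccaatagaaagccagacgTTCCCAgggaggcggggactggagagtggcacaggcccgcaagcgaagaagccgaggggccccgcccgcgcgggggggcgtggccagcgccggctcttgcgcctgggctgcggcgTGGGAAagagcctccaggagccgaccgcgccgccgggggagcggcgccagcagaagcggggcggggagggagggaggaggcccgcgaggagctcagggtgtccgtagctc

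Dll1, chr1:64993225-64993524, minus strand: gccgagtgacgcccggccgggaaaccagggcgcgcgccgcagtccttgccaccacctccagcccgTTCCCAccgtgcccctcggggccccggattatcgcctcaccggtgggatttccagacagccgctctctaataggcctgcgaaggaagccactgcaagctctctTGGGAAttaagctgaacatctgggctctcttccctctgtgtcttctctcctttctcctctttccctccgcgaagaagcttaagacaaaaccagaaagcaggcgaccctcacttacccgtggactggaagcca

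Notch3, chr7:11834536-11834835, minus strand: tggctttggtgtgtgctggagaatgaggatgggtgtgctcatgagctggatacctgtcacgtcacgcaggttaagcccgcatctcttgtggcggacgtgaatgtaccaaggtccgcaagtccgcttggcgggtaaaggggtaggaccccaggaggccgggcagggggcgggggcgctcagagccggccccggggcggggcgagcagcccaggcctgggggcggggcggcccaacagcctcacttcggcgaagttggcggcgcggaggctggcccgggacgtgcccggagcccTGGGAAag

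In Hes1 both matches lie in the same orientation and begin at positions -123 and -109 relative to the start. In Hey2 they begin at -175 and -60 and in Dll1 at -185 and -82, in both genes in opposite orientations. The search took only these exact letters and misses any site with a variant core. It therefore does not give the arrangement of RBPJ sites in these promoters. The letters CACNAG, the N-box to which Hes1 binds, occurred in the windows of Hes1, Notch1 and Notch3, beside 43.1% of all windows, and the letters CACGTG, an E-box bound by Hes and Hey proteins, in none of the windows of these genes, beside 6.42% of all windows.

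By mean TPM, Hes1, Notch2 and Dll1 stood in that order at the top of the 10 genes in both groups, with no overlap between neighbours. In the libraries labelled Lv-Ctrl, Hey2 followed, above Notch1 and Jag1, whose values overlapped, and then Notch3 and Jag2. In the libraries labelled Lv-Piezo1, Jag1 and Notch1 followed Dll1, again overlapping, and Hey2 stood beside Jag2, at 0.608 ± 0.0907 and 0.608 ± 0.13 TPM (n = 4 each, SD). The spread between samples of 1 group was 5.01% of the mean for Notch1 and 21.5% for Jag2 in the libraries labelled Lv-Piezo1.

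The profile nearest to that of Jag1, the tested Notch gene with the largest log2 fold change, was sought among 9061 genes with a symbol and a mean of at least 5 TPM, by the root mean square difference of centred log2(TPM + 1) values over the 8 samples. Ghdc (0.05), Cand2 (0.06) and Pde5a (0.06), which encodes a phosphodiesterase that breaks down cyclic GMP, came closest. Their log2 fold changes were 0.89, 0.88 and 0.92 (adjusted p at most 3.6e-05 from limma), and the likeness is a description of 8 samples in 2 groups.

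Other genes of the pathway were taken from a list of 66, of which 55 were tested. Of these, 4 were called as higher (4.91% of all tested genes) and 1 as lower (2.76% of all tested genes). Dner and Aph1b, among the 4, averaged below 1 TPM in the libraries labelled Lv-Ctrl and passed the limit for testing through the other group. Without the fold change limit 25 were higher and 9 lower, beside 41.9% and 16.3% of all tested genes, and 21 had an adjusted p of at least 0.05. Their median log2 fold change was 0.10, near the 0.14 of all tested genes. After median-ratio scaling or quantile normalization, 2 were called as higher and 1 as lower.

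**Figure D4:**
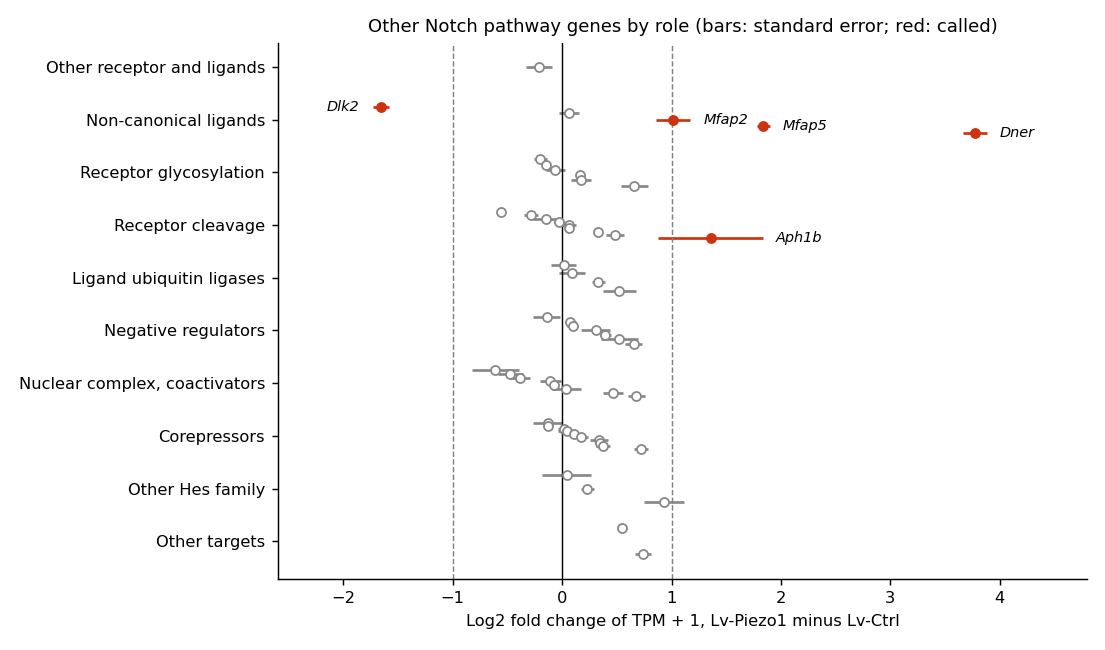
Log2 fold change of TPM + 1 (x axis, Lv-Piezo1 minus Lv-Ctrl) of the 55 tested genes of the Notch pathway list, grouped by role, with 1 point per gene, standard errors from limma as bars and dashed lines at the limit of 1. The red points are the 5 genes called, 4 of which are non-canonical ligands.

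The largest differences lay among the non-canonical ligands, proteins reported to bind Notch receptors without being Jagged or Delta-like ligands of the usual form. Of 6 on the list 5 were tested, 3 were called as higher and 1 as lower, beside 4.91% and 2.76% of all tested genes. Dner, a transmembrane protein with EGF repeats known from neurons, measured 0.69, 0.37, 0.33 and 0.24 TPM in the libraries labelled Lv-Ctrl and 16.7, 17.4, 19.6 and 18.9 TPM in the libraries labelled Lv-Piezo1. Its mean was 44.6 times higher, a log2 fold change of 3.77 (limma, SE 0.11, adjusted p = 1.1e-08), more than any of the 10 Notch genes. Dner passed the limit for testing only through the libraries labelled Lv-Piezo1, where it is high.

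Dlk2, a Delta-like protein that lacks the domain with which other Delta ligands bind Notch, fell from a mean of 32.4 ± 2.12 TPM to one of 9.62 ± 0.916 TPM (n = 4 each, SD), which is a log2 fold change of -1.66 (limma, SE 0.07, adjusted p = 1.6e-07). Mfap5, a glycoprotein of elastic microfibrils, rose from a mean of 31.2 ± 2.61 TPM to one of 114 ± 3.32 TPM (n = 4 each, SD), which is a log2 fold change of 1.84 (limma, SE 0.06, adjusted p = 1.9e-08). The related Mfap2 rose from a mean of 3.29 ± 0.847 TPM to one of 7.63 ± 1.3 TPM (n = 4 each, SD), which is a log2 fold change of 1.01 (limma, SE 0.15, adjusted p = 4.3e-04) that lay at the limit. It was 0.87 with median-ratio scaling, 0.81 with quantile normalization, and between 0.93 and 0.99 without Lv-Ctrl replicate 1, 3 or 4 or Lv-Piezo1 replicate 1 or 3, so Mfap2 was not called under any of these. The ratio of Dlk2 to Mfap5 was 0.965 to 1.08 in the libraries labelled Lv-Ctrl and 0.0757 to 0.0885 in the libraries labelled Lv-Piezo1. Egfl7 was at 29.5 ± 3.76 and 30.7 ± 2.16 TPM (n = 4 each, SD).

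**Figure D5:**
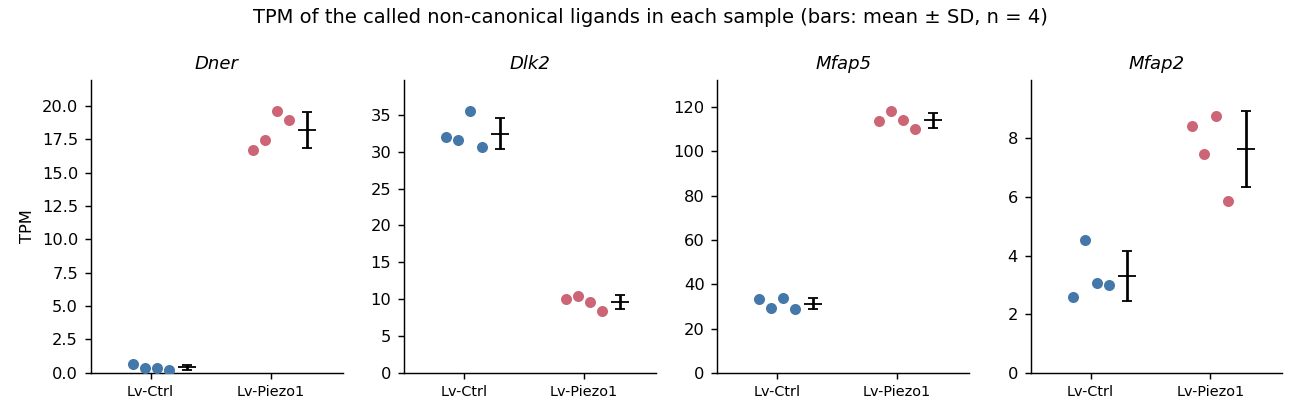
TPM (y axis, linear, from 0, a separate scale for each gene) of the 4 called non-canonical ligands in each sample. In the points (samples, beside mean and SD bars, n = 4) Dner, Mfap5 and Mfap2 lie higher and Dlk2 lower in all 4 libraries labelled Lv-Piezo1.

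The machinery that processes the receptors differed less. For the counts that follow, 8167 of all 13103 tested genes had an unadjusted p below 0.05 from limma. After adjustment 41.9% of all tested genes were higher and 16.3% lower. Of the 9 proteases and gamma-secretase subunits, 1 was called, Aph1b, at 1.25, 0, 1.86 and 0 TPM in the libraries labelled Lv-Ctrl and 3.13, 1.33, 2.23 and 7.90 TPM in the libraries labelled Lv-Piezo1. Its groups overlapped (two-sided exact permutation test, p = 0.057), and the adjusted p from limma was 0.088, 0.092, 0.069 and 0.081 without Lv-Ctrl replicate 2, Lv-Ctrl replicate 4, Lv-Piezo1 replicate 1 and Lv-Piezo1 replicate 4. Whether its reads were separated from those of the paralog Aph1a is not given in the sources used here. Psenen, the most abundant subunit, was lower by a log2 fold change of -0.56 (limma, SE 0.04, adjusted p = 2.9e-06), at 249 ± 11.8 and 169 ± 4 TPM (n = 4 each, SD), whereas Ncstn was at 94.0 ± 4.66 and 98.1 ± 1.82 TPM (n = 4 each, SD, adjusted p = 0.21 from limma). Of the 6 tested enzymes that add sugars to the receptors 0 were called by limma, 4 had an unadjusted p below 0.05, and the adjusted p was below 0.05 for 2 higher and 2 lower. The most abundant were Xxylt1, which extends O-glucose on EGF repeats, and the fringe enzyme Rfng, with log2 fold changes of -0.15 (limma, SE 0.04, adjusted p = 0.0095) and 0.17 (limma, SE 0.04, adjusted p = 0.0030). Among the ubiquitin ligases that act on ligands, Mib2 was at 27.9 ± 1.72 and 35.2 ± 2.25 TPM and Mib1 at 6.28 ± 0.959 and 6.73 ± 0.868 TPM (n = 4 each, SD), and 2 of the 4 had an adjusted p below 0.05, both higher. Of 7 tested genes listed here as negative regulators, Deltex proteins among them, 0 were called by limma and 4 had an unadjusted p below 0.05. The adjusted p was below 0.05 for 3, all higher, which does not show more inhibition of Notch. The most abundant were Dtx3, a Deltex protein, at 71.5 ± 5.06 and 76.3 ± 0.564 TPM (n = 4 each, SD, limma adjusted p = 0.13), and Numbl, a relative of Numb, at 38.5 ± 2.41 and 50.7 ± 1.58 TPM (n = 4 each, SD, limma adjusted p = 1.4e-04).

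In the nucleus, Rbpj, the DNA-binding partner of all Notch receptors, was at 53.8 ± 6.71 and 74.3 ± 5.89 TPM (n = 4 each, SD), which is a log2 fold change of 0.46 (limma, SE 0.09, adjusted p = 0.0022). Of the 8 tested genes of the complex and its coactivators, 0 were called by limma, 5 had an unadjusted p below 0.05, and after adjustment 2 were higher and 3 lower. Over all 13103 tested genes, 8167 had an unadjusted p below 0.05 from limma, and after adjustment 41.9% were higher and 16.3% lower. Of the 10 corepressors 0 were called by limma, 7 had an unadjusted p below 0.05, and after adjustment 6 were higher and 1 lower. The lower one was Ctbp1, at 146 ± 3.75 and 133 ± 1.27 TPM (n = 4 each, SD). Hes6, a member of the Hes family that counteracts Hes1, was at 32.9 ± 2.15 and 38.7 ± 2.38 TPM (limma log2 fold change 0.23, adjusted p = 0.0089), and Hes7, an oscillating gene of the somites, at 1.54 ± 0.693 and 1.59 ± 0.579 TPM (limma log2 fold change 0.04, adjusted p = 0.89). The listed targets outside the Hes and Hey families, Ccnd1 and Myc, which are also driven by many other signals, had log2 fold changes of 0.55 and 0.74 (adjusted p at most 2.4e-05 from limma), both under the limit of 1. Nrarp, a target that feeds back on the Notch complex, was under the limit for testing and is named after its values had been seen. It measured 0.29, 0.21, 0.23 and 0.09 TPM in the libraries labelled Lv-Ctrl and 1.57, 1.14, 1.17 and 1.42 TPM in the libraries labelled Lv-Piezo1, so it was higher where Hes1 and Hey2 were lower. Its groups did not overlap, as for 28.2% of the rows with a mean between 0.1 and 1 TPM. No p is given for a gene picked by its values.

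Some markers of other cell types differed between the groups, and others were near 0 in both. They stand beside the values of Notch3, Jag1 and the others. For all marker counts that follow, 4.91% of all tested genes were called as higher and 2.76% as lower. Of 11 markers of smooth muscle cells and pericytes, 10 were tested, 6 were called as higher and 2 as lower. The summed TPM of the 11 ran from 828 to 863 in the libraries labelled Lv-Ctrl and from 4602 to 4771 in the libraries labelled Lv-Piezo1. Most of the second sum was Tagln and Acta2, with means of 2730 and 1344 TPM there and 219 and 51.2 TPM under Lv-Ctrl. The largest part of the first sum was Kcnj8, with means of 326 TPM there and 39.1 TPM under Lv-Piezo1. Acta2 and Myh11 were among the 6, Kcnj8 and Abcc9 were the 2, and the pericyte marker Rgs5 stayed at or below 0.35 TPM in every sample. Of 9 endothelial markers in the table, only Esam, a junction protein, reached the limit for testing, and it was called as higher, with means of 0.203 ± 0.114 and 5.68 ± 0.893 TPM (n = 4 each, SD). The defining endothelial genes Pecam1 and Cdh5 were at or below 0.21 TPM throughout. In the libraries labelled Lv-Piezo1 the means of Vwf, Tek and Tie1 were lower and those of Pecam1, Cdh5, Kdr and Erg higher. All of these were under the limit for testing. The 9 summed to 0.53 to 0.98 TPM and to 5.37 to 7.40 TPM, a difference made up almost wholly of Esam. Of 8 macrophage markers, Cd68 was called as higher and Ptprc and Adgre1 were at or below 0.01 TPM. The 8 summed to 20.98 to 22.7 and 36.2 to 41.3 TPM. Most of each sum was Cd14, at 20.9 ± 0.324 and 25.8 ± 1.91 TPM (n = 4 each, SD), which was not called. Of the fibrous annulus markers 8 were tested and 1, Dcn, was called, as lower. Without the fold change limit 4 were higher and 3 lower by adjusted p from limma, beside 41.9% and 16.3% of all tested genes. Of 3 tested chondrocyte-like markers 1 was called as higher. Of 3 tested nucleus pulposus markers 0 were called by limma, with 2 at an unadjusted p below 0.05, beside 8167 of all 13103 tested genes. Esam, Cd68 and Comp, the called chondrocyte-like marker, averaged below 1 TPM in the libraries labelled Lv-Ctrl. They passed the limit for testing through the other group, so that limit set their direction. The part of all these cell type markers in the Notch values was not tested.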

How the data were processed

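RNA-seq libraries of AFCs under CMS, 4 per label, were analysed. Reads of low quality had been discarded by the authors, who used HISAT2 for mapping against rat and StringTie for transcripts. The deposited values are TPM per gene, rounded to 2 decimals, with each group's mean, which was not used. The study's methods name FPKM, and how the TPM values were made is not given in the sources used here. The submitters' notes name the mouse build mm10, while the identifiers are rat Ensembl genes, so no coordinates of the table's genes are given.

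Log2(TPM + 1) was fitted with limma 3.58.1 in R 4.3.3 (trend, Benjamini-Hochberg adjustment) where the 8 libraries averaged 1 TPM or more (13103 genes). Count models were not used because TPM are not counts. A single gene was tested by an two-sided exact permutation test over 70 relabelings. P-values measure the spread between the samples of a group. Neither the permutation test nor the main fit takes account of isolations shared by the groups. The fit was tested on simulated data. The Notch genes, the pathway and marker lists and the tests were chosen with earlier results of these data known. All 10 Notch genes, called pathway genes, up to 2 abundant pathway genes per role and the 3 nearest profiles are named, and others are marked. Promoter sequences are from RefSeq (GRCr8).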

Additional observations from a re-analysis of the deposited data

How the results depend on the processing

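The direction of each of the 9 Notch genes above 0 was the same under all alternatives run (pseudocount, limit on low TPM, scaling, mitochondrially encoded genes left out, moderation, replicate block and each sample left out). Most of these could not have turned a direction. The limit on low TPM, the moderation and the block leave the difference itself unchanged. For the 8 genes whose groups did not overlap, neither the pseudocount nor leaving out 1 sample can turn it. Rescaling of the table could have. The number of called Notch genes was 0 as reported, 2 with a pseudocount of 0.1, 1 with no limit on low TPM, 5 with both, and 5 without the fold change limit, and 0 whichever sample was left out. The number with an adjusted p below 0.05 was 5 as reported, 9 with no limit on low TPM, 9 with that and a pseudocount of 0.1, and 3 with a mean TPM of at least 5, where fewer genes were tested, and 5 to 6 when 1 sample was left out. Called pathway genes numbered 5 as reported, 3 after median-ratio scaling, 3 after quantile normalization and 34 without the fold change limit. They numbered 3 to 5 when 1 sample was left out, with 3 without Lv-Ctrl replicate 4, where Mfap2 and Aph1b were lost. Over all genes, 1005 were called, 628 at a mean TPM of at least 5, 2265 with a pseudocount of 0.1 and no limit, and 7626 without the fold change limit, and leaving out 1 sample gave 996 to 1038. Of the called genes 64.1% were higher as reported, 51.0% with median-ratio scaling and 49.4% with quantile normalization. With the replicate number as a block, 0 Notch genes, 4 pathway genes and 1004 genes in all were called, and Aph1b was lost. Deviations from the group means of samples with the same number correlated at -0.03, -0.06, -0.05 and -0.01 across genes. This gives no hint that the numbers mark a pairing. By the methods the groups share isolations, and which libraries belong together is not given. TPM keeps no depth, so counting error for the genes below 1 TPM is unknown.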

Other observations

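Some other genes of the pathway list, chosen here after their values were seen, differed without reaching the fold change limit. Lfng, a fringe enzyme whose sugar shifts the preference of Notch receptors between Delta-like and Jagged ligands, was at 10.3, 8.12, 8.63 and 8.21 TPM in the libraries labelled Lv-Ctrl and 14.7, 11.8, 18.1 and 13.9 TPM in those labelled Lv-Piezo1, a log2 fold change of 0.66 (limma, SE 0.12, adjusted p = 0.0013). Numb, an inhibitor of Notch receptors, was at 13.8 ± 1.53 and 22.2 ± 0.977 TPM (n = 4 each, SD), which is a log2 fold change of 0.65 (adjusted p = 8.7e-05 from limma). Hes2, another member of the Hes family, was at 0.568 ± 0.167 and 2.04 ± 0.72 TPM (n = 4 each, SD), which is a log2 fold change of 0.93 that was 1.65 with a pseudocount of 0.1. Hes2 passed the limit for testing only through the libraries labelled Lv-Piezo1, where it is high. The Mastermind coactivators Maml2 and Maml3 were lower, with log2 fold changes of -0.61 (adjusted p = 0.034 from limma) and -0.47 (adjusted p = 0.0060 from limma), and the groups overlapped for Maml2. Maml1, a coactivator found in most cells, was listed at 0 in all 8 samples, which may be a failed estimate and says nothing of its expression.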
